A study of Bos taurus with 56 samples.

Results

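The epithelium of the oviduct isthmus ipsilateral to the corpus luteum (CL) was compared with that of the contralateral isthmus in 5 post-partum non-lactating cows. The 10 libraries, 5 of each side, were chosen by the group, region and side in the column names of the deposited count table and make up 10 of the 56 libraries of the series, which also holds heifers, lactating cows and the ampulla. The animal tag that ends each column name pairs the sides, so every cow, named here A to E in the order of the tags, gave 1 library per side. The cows were primiparous Holsteins that were dried off at calving and never milked. At about 60 days post-partum their cycles were synchronized with an intravaginal progesterone device, a prostaglandin F2 alpha analogue and buserelin, a GnRH analogue. They were not inseminated and were slaughtered on Day 3 after estrus, when a fresh CL, or corpus haemorrhagicum, was found on 1 ovary. Epithelial cells were scraped from each segment, and stranded libraries were made from their total RNA. All cows shared the synchronization, and both sides came from an animal with a CL, so no library represents a cow without one. The heifers (nulliparous) and the milked lactating cows, used below for comparison, received the same synchronization.

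The isthmus is the narrow segment of the oviduct that joins the uterus. Its epithelium of secretory and ciliated cells holds the sperm reservoir and lines the passage of the early embryo. After ovulation the CL forms from the emptied follicle and secretes progesterone, which reaches the oviduct through the general circulation and, from the near ovary, by local transfer between vessels that lie side by side. Both oviducts of a cow therefore share the circulating hormones and differ in their distance from the CL. They can also differ in that the ovulated oocyte with its cumulus cells enters the ipsilateral oviduct. The study states that its design cannot separate this from the CL, though it considers a detectable effect of a single oocyte unlikely.

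Counts on genes, the depth of a library, were 3714419 to 6836850 ipsilaterally and 1901454 to 5274847 contralaterally, higher ipsilaterally in 4 of 5 cows, and the contralateral library of cow B was the smallest of the 10. A large share of the alignments to a single place was counted on no gene, 76.7 to 78.4% ipsilaterally and 78.2 to 80.1% contralaterally. This share, called the share outside genes below, was lower ipsilaterally in 5 of 5 cows (exact sign-flip permutation test, two-sided, p = 0.0625, the smallest that 5 pairs can give). It was taken over alignments counted on a gene or on none. The study counted in strand-specific and intersection-strict mode, so the share can also hold alignments inside genes that these rules did not assign. The contralateral library of cow C stood apart. OVGP1, the oviduct-specific glycoprotein of secretory cells, was at 37.6 CPM (counts scaled to a common library size by TMM) in it, against 9598 to 15517 CPM in the other 9 libraries. In the same library 202 of 13869 genes lay over 4-fold below the mean of the other 4 contralateral libraries, whereas the other 9 libraries had 26 to 101 such genes below the mean of their own side. Of the 28 isthmus libraries in the series, 3 had OVGP1 under 1000 CPM, namely this library and 2 libraries of heifers, and the other 25 ranged from 2009 to 18498 CPM.

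**Figure D1:**
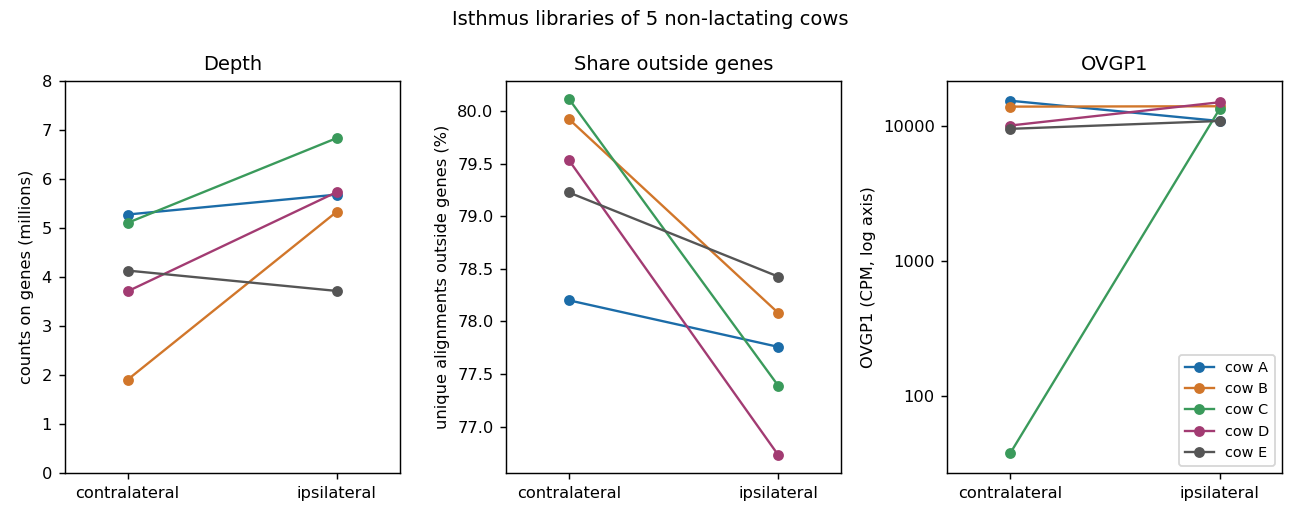
Depth (counts on genes), share of unique alignments counted on no gene (outside genes, %) and OVGP1 level (CPM, log axis) in the contralateral and ipsilateral isthmus library of each cow, with a line joining the libraries of a cow. The share outside genes was lower ipsilaterally in 5 of 5 cows, and OVGP1 was low in the contralateral library of cow C alone among these 10.

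The libraries held the defining markers of oviduct epithelium. The summed level of 7 epithelial genes was 1742 to 1923 CPM ipsilaterally and 1388 to 1936 CPM contralaterally, that of 29 ciliated cell genes 11340.0 to 13388 and 11082 to 14687 CPM, and that of 11 secretory cell genes 16132 to 25326 and 1952 to 23074 CPM, with the lowest value in the contralateral library of cow C. Markers of other cells were low. Sums over both sides were 21.1 to 359 CPM for fibroblasts, 64.8 to 121 for smooth muscle, 15.7 to 82.1 for endothelium, 46.7 to 104 for macrophages, 20.01 to 55.5 for T and NK cells, 7.33 to 56.2 for B and plasma cells, 3.36 to 22.2 for neutrophils and 12.7 to 33.9 for luteal, granulosa and cumulus cells. Of defining markers, the hemoglobin genes HBA and HBB, the B cell gene MS4A1, the endothelial gene CLDN5 and the neutrophil genes CXCR1 and CXCR2 had 0 counts in all 10 libraries. The highest fibroblast sum, 359 CPM, was in the contralateral library of cow A, and the other libraries had at most 125 CPM. Mesothelial markers summed to 294 to 746 CPM ipsilaterally and 206 to 691 CPM contralaterally. In RNA of a whole scraping, fewer cells of a type and less RNA per cell cannot be told apart.

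Ipsilateral and contralateral isthmus differed in 1038 of 13869 genes tested (7.48%), by edgeR's quasi-likelihood F test with the cow as a block at a Benjamini-Hochberg adjusted p under 0.05. Of these differentially expressed genes (DEGs), 531 were higher (3.83% of the genes tested) and 507 lower (3.66%) in the ipsilateral isthmus. Among DEGs the median log2 fold change was 0.83 for genes that rose and its median size was 0.88 for genes that fell, with 199 and 213 genes over 2-fold and 36 and 37 genes over 4-fold. All 5 cows moved in 1 direction in 1001 of the 1038, as they did in 21.4% of all genes tested, and the ranges of the sides did not overlap in 550, as was so in 6.62% of all genes (3.61% with the ipsilateral side above and 3.01% below). Without the block 709 genes were called (5.11%; 408 higher, 301 lower), 653 of them among the 1038. Without cow C the count was 751 (443 and 308), 676 of them among the 1038, and no DEG changed direction. Without cow A it was 412, without cow B 510 and without cow D 655. When the share of alignments outside genes entered the fit beside cow and side, 321 genes were called (238 higher, 83 lower), of which 173 were among the 1038. In that fit 17 of the 1038 took the opposite sign. The share was lower ipsilaterally in each cow, so it and the side move together in these pairs.

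**Figure D2:**
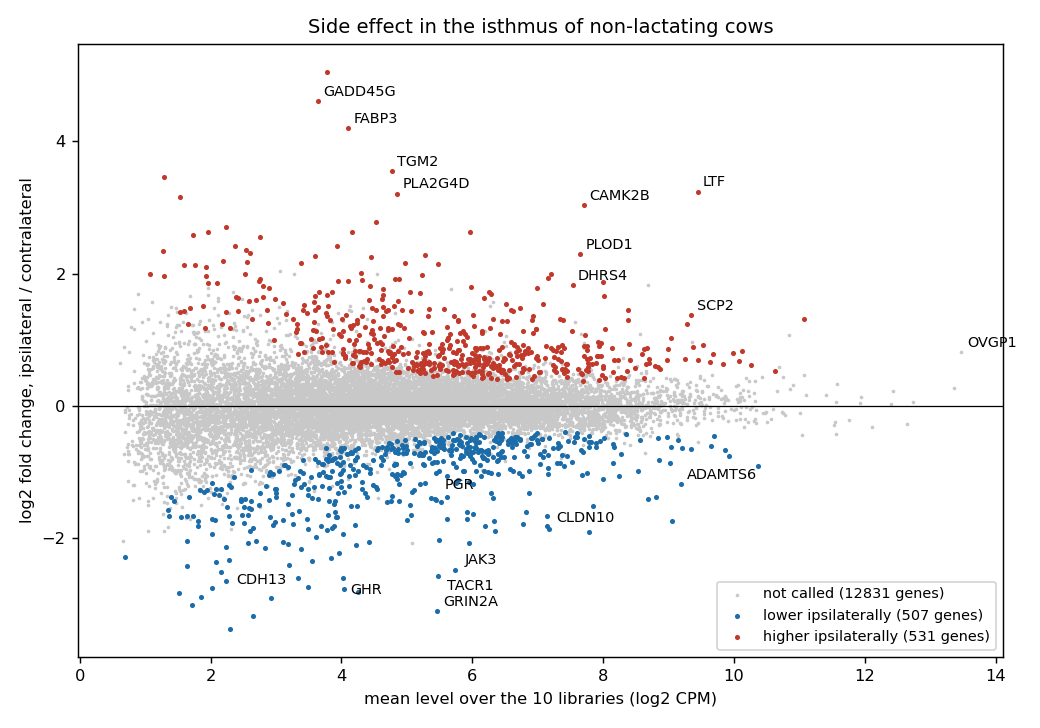
Log2 fold change between the ipsilateral and the contralateral isthmus against the mean level over the 10 libraries (log2 CPM) for the 13869 genes tested. Red points mark the 531 genes called higher and blue points the 507 genes called lower ipsilaterally.

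Large increases were found in genes of different functions. LTF, which encodes the iron-binding secretory protein lactotransferrin, was at 2946, 971, 855, 1321 and 287 CPM in the ipsilateral isthmus of cows A to E and at 204, 91.5, 58.8, 112 and 117 CPM in the contralateral isthmus. Every ipsilateral value lay above every contralateral one, with the smallest rise in cow E (9.44-fold in the fit, log2 fold change 3.24, SE 0.345, adjusted p = 0.000734). GADD45G, a stress-inducible growth arrest gene, was at 32.6, 11.7, 8.07, 45.02 and 22.05 CPM ipsilaterally and at 1.15, 1.58, 0, 1.06 and 1.45 CPM contralaterally, and was thus near the limit of counting on the contralateral side in all cows (log2 fold change 4.61, SE 0.381, adjusted p = 0.000349). FABP3, a cytosolic fatty acid carrier, was at 21.3, 28.5, 36.4, 63.8 and 12.1 CPM against 0, 1.58, 1.31, 5.02 and 1.69 CPM, without overlap (log2 fold change 4.20, SE 0.401, adjusted p = 0.000437). CAMK2B, a calcium/calmodulin-dependent kinase, was at 468, 269.6, 416, 399 and 277 CPM against 22.3, 26.8, 51.3, 112 and 40.5 CPM (log2 fold change 3.04, SE 0.295, adjusted p = 0.000437), and the contralateral value was highest in cow D. TGM2, the protein crosslinking enzyme transglutaminase 2, was at 54.5, 56.8, 12.5, 101 and 24.7 CPM against 1.73, 7.36, 0, 8.72 and 5.54 CPM (log2 fold change 3.55, SE 0.395, adjusted p = 0.000871). With no count in the contralateral library of cow C, its log2 fold change without that cow was 3.36 (adjusted p = 6.88e-05).

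The smallest p-values belonged to PLOD1 and DHRS4. PLOD1, a procollagen lysyl hydroxylase, was at 446, 254, 256, 415 and 282 CPM ipsilaterally and at 64.7, 63.6, 48.3, 122 and 50.1 CPM contralaterally (log2 fold change 2.29, SE 0.158, adjusted p = 0.000157). DHRS4, a short-chain reductase of carbonyl compounds including retinal, was at 380.4, 264, 233, 399 and 178 CPM against 86.4, 78.4, 73.4, 96.9 and 61.7 CPM (log2 fold change 1.83, SE 0.127, adjusted p = 0.000157). Both genes rose in each cow and the sides did not overlap. The adenosine receptor gene ADORA2B was at 64.6, 52.2, 38.9, 55.3 and 42.7 CPM against 19.2, 16.3, 8.61, 19.3 and 14.7 CPM (log2 fold change 1.73, SE 0.146, adjusted p = 0.000349), and MMP28, which encodes the metalloproteinase epilysin, rose from a contralateral mean of 27.4 ± 7.51 to 98.3 ± 39.8 CPM (SD, n = 5; log2 fold change 1.80, SE 0.153, adjusted p = 0.000349).

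Among the genes that fell, several encode receptors or signalling proteins. GRIN2A, a subunit of the NMDA glutamate receptor, was at 12.6, 4.97, 7.34, 2.21 and 22.6 CPM in the ipsilateral isthmus of cows A to E and at 112, 24.7, 88.2, 105 and 62.6 CPM in the contralateral isthmus (log2 fold change -3.10, SE 0.424, adjusted p = 0.00233). TACR1, the receptor of substance P, was at 15.1, 8.79, 8.95, 5.72 and 34.7 CPM against 83.1, 50.5, 84.3, 84.3 and 70.4 CPM (log2 fold change -2.57, SE 0.327, adjusted p = 0.00163). In both genes the ipsilateral value was highest in cow E and still below all contralateral values. NRCAM, a neuronal cell adhesion molecule, fell from 99.4 ± 34.7 to 24.7 ± 10.2 CPM (SD, n = 5; log2 fold change -2.07, SE 0.186, adjusted p = 0.000379). PEG10, an imprinted gene derived from a retrotransposon, was at 139.5, 29.2, 47.4, 39.5 and 42.7 CPM against 540.5, 97.3, 259.5, 114 and 129.6 CPM, so that the ranges overlapped although every cow fell (log2 fold change -1.86, SE 0.149, adjusted p = 0.000347). Cow A was the highest on both sides, and without the block the adjusted p of PEG10 was 0.052. ADAMTS6, a secreted metalloproteinase, fell from 814 ± 142 to 358 ± 61.04 CPM (SD, n = 5; log2 fold change -1.18, SE 0.121, adjusted p = 0.000582).

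**Figure D3:**
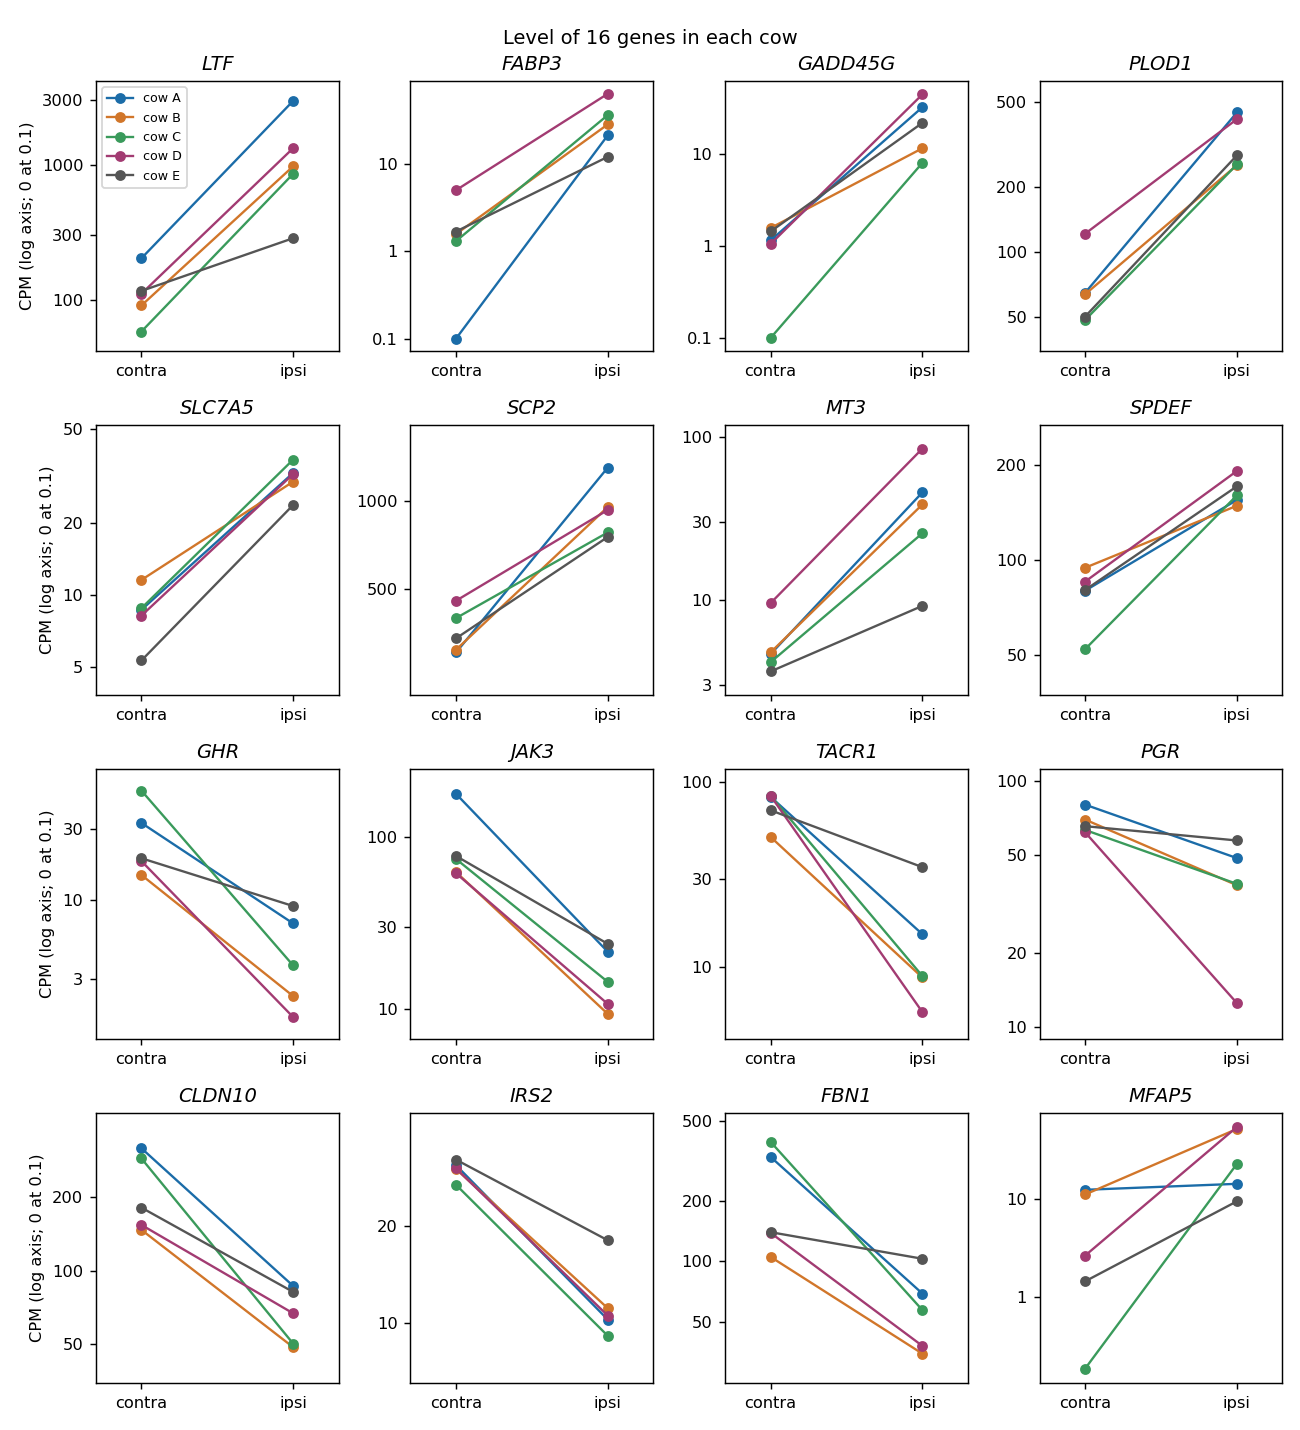
Level (CPM, log axis) of 16 genes in the contralateral and ipsilateral isthmus, with a line joining the libraries of a cow and values of 0 drawn at 0.1. Levels rose in all 5 cows for the first 8 genes and for MFAP5, and fell in all 5 cows for the other 7.

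The nuclear receptor of the CL hormone was lower near the CL. PGR, the progesterone receptor, was at 48.8, 37.8, 38.3, 12.5 and 57.5 CPM ipsilaterally and at 80.5, 69.9, 63.5, 62.1 and 65.8 CPM contralaterally. It was lower ipsilaterally in 5 of 5 cows without overlap, with the largest difference in cow D (log2 fold change -0.92, SE 0.238, adjusted p = 0.0401). The call did not hold without the block (adjusted p = 0.118) or without cow B (adjusted p = 0.122), and with the share outside genes in the fit the log2 fold change was -0.20 (adjusted p = 0.85). Of 14 tested genes of steroid receptors, their chaperones and steroid conversion, PGR fell, 1 rose and 12 did not pass (median log2 fold change -0.05, against 0.00 for all genes tested). The gene that rose was HSD11B2, which inactivates cortisol, from 2.71 ± 0.526 to 6.28 ± 1.45 CPM (SD, n = 5; log2 fold change 1.23, SE 0.310, adjusted p = 0.0364). This call did not hold without cow B (adjusted p = 0.0741), without cow C (adjusted p = 0.0794) or with the share outside genes in the fit (adjusted p = 0.17).

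In growth hormone, insulin and prolactin signalling 6 of 23 tested genes fell and 1 rose, with a median log2 fold change of -0.10. With the share outside genes in the fit 1 fell and 1 rose. GHR, the growth hormone receptor, was at 6.99, 2.29, 3.67, 1.66 and 9.14 CPM ipsilaterally and at 32.7, 14.7, 53.7, 18.2 and 19.03 CPM contralaterally (log2 fold change -2.60, SE 0.362, adjusted p = 0.0025). JAK3, a tyrosine kinase that signals from cytokine receptors, was at 21.5, 9.36, 14.4, 10.7 and 23.9 CPM against 178, 62.6, 74.5, 61.5 and 77.6 CPM (log2 fold change -2.48, SE 0.186, adjusted p = 0.000236). IRS2, an insulin receptor substrate, was at 10.2, 11.1, 9.10, 10.5 and 18.01 CPM against 30.8, 29.98, 26.8, 30.1 and 32.04 CPM (log2 fold change -1.38, SE 0.170, adjusted p = 0.00137). The 3 genes were lower ipsilaterally in all cows without overlap. IGFBP3, a carrier of insulin-like growth factors, was lower in 4 of 5 cows, with 80.7 CPM ipsilaterally and 73.002 CPM contralaterally in cow E (log2 fold change -1.32, SE 0.341, adjusted p = 0.0406, and 0.144 without the block).

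Phospholipase A2 genes, a family with members that release arachidonic acid for prostaglandin synthesis, accounted for most changes in the prostaglandin list. There 4 of 14 tested genes rose and 1 fell (median 0.27). The 9 not called included PLA2G4A (log2 fold change -0.13, adjusted p = 0.706) and PTGS1 (0.71, adjusted p = 0.429). PTGS2 and PTGES were not tested. PLA2G4D was at 53.1, 82.2, 45.4, 55.3 and 18.01 CPM ipsilaterally and at 2.69, 20.5, 0.374, 7.92 and 4.10 CPM contralaterally (log2 fold change 3.21, SE 0.449, adjusted p = 0.00251). PLA2G4F was at 27.8, 43.8, 33.6, 25.3 and 23.4 CPM against 6.93, 14.2, 1.12, 11.6 and 8.43 CPM (log2 fold change 2.01, SE 0.386, adjusted p = 0.0113). For both, the lowest level was in the contralateral library of cow C, and without that cow the log2 fold changes were 2.77 (adjusted p = 0.000138) and 1.55 (adjusted p = 0.000928). PLA2G3 had no count in the contralateral libraries of cows A, B and E and 3.23 to 7.71 CPM ipsilaterally (adjusted p = 0.0169). PLA2G4B, a neighbouring paralog whose reads may be shared with overlapping transcripts, fell (log2 fold change -1.21, SE 0.303, adjusted p = 0.0362). The calls of PLA2G3 and PLA2G4B did not hold without cow B (adjusted p = 0.052 and 0.122).

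Of the EGF family and its receptors, 2 of 17 tested genes rose and 1 fell (median -0.27). TGFA, a ligand of the EGF receptor, was at 58.6, 67.1, 52.1, 68.8 and 71.8 CPM ipsilaterally and at 18.9, 47.3, 24.5, 27.997 and 51.6 CPM contralaterally (log2 fold change 0.996, SE 0.178, adjusted p = 0.00808), while the receptor gene ERBB4 fell from 45.8 ± 7.61 to 27.9 ± 4.07 CPM (SD, n = 5; log2 fold change -0.71, SE 0.138, adjusted p = 0.0114). NRG2, a neuregulin, rose to 4.83 ± 2.77 CPM from 1.63 ± 0.606 CPM (SD, n = 5; adjusted p = 0.0249, and 0.0719 without the block). In the WNT pathway 8 of 28 tested genes fell and 2 rose (median -0.19), and 5 fell without the block, without cow B or without cow C and 1 with the share outside genes in the fit. SFRP2, a secreted WNT antagonist, was at 7.71, 2.29, 6.31, 2.77 and 4.84 CPM against 38.3, 8.94, 34.6, 21.1 and 16.1 CPM (log2 fold change -2.30, SE 0.217, adjusted p = 0.000437), and NKD1, an intracellular inhibitor of the pathway, fell from 23.1 ± 13.8 to 6.36 ± 2.76 CPM (SD, n = 5; log2 fold change -1.81, SE 0.300, adjusted p = 0.00576). The formin DAAM2 fell with a log2 fold change of -2.14 (SE 0.391) and the ligand WNT5B rose with 1.86 (SE 0.425), at low levels whose ranges overlapped. Their adjusted p was 0.00892 and 0.0248, and 0.0569 and 0.121 without the block.

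Several lists below carry the names of pathways that the study derived from these same libraries, namely amino sugar, HIF-1, arginine and proline, glutathione and glycolysis pathways, so their direction is not independent evidence. The study also derived the PPAR signalling pathway, and the fatty acid list below, which holds the PPAR genes, is to be read in the same way. The shares of called genes to read each count against are 3.83% higher and 3.66% lower.

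Genes of arginine, proline and polyamine metabolism moved upward where they passed, with 5 of 30 tested genes higher, 0 lower and 25 not called (median log2 fold change 0.36). SLC25A29, a mitochondrial carrier of basic amino acids, was at 82.3, 58.3, 52.7, 72.9 and 53.8 CPM ipsilaterally and at 10.6, 20.5, 11.98, 17.96 and 7.71 CPM contralaterally (log2 fold change 2.28, SE 0.205, adjusted p = 0.000379). ODC1, the rate-limiting enzyme of polyamine synthesis, was at 31.2, 25.6, 36.4, 28.6 and 30.4 CPM against 13.9, 13.1, 14.6, 16.4 and 10.8 CPM (log2 fold change 1.15, SE 0.159, adjusted p = 0.00243). In both genes the sides were apart in every cow. Spermine synthase, SMS, rose from 167 ± 22.6 to 269.8 ± 84.6 CPM (SD, n = 5; adjusted p = 0.0145, and 0.0565 without cow B). The inducible nitric oxide synthase NOS2 was low on both sides, at 4.97 to 24.2 CPM ipsilaterally and 1.45 to 4.81 CPM contralaterally (log2 fold change 1.78, SE 0.377, adjusted p = 0.0179). Amino acid transporters changed in both directions, 3 higher and 5 lower of 19 tested. SLC7A5, the light chain of the LAT1 carrier of large neutral amino acids, was at 32.6, 30.001, 37.1, 32.3 and 23.9 CPM against 8.66, 11.6, 8.80, 8.19 and 5.30 CPM (log2 fold change 1.91, SE 0.173, adjusted p = 0.000379), whereas SLC1A4, SLC7A2 and SLC6A15 fell, with log2 fold changes of -0.98 (SE 0.180), -1.03 (SE 0.221) and -1.71 (SE 0.346) and adjusted p of 0.00925, 0.0192 and 0.0146.

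Genes of energy metabolism that passed were all higher ipsilaterally. In glycolysis and lactate transport 6 of 21 tested genes rose and 0 fell (median 0.40). ENO1, an enolase, was at 194, 228, 239, 283 and 160.2 CPM ipsilaterally and at 117, 122, 114, 113 and 129 CPM contralaterally (log2 fold change 0.87, SE 0.146, adjusted p = 0.00597). ALDOA, TPI1 and GPI rose likewise, with log2 fold changes of 0.95 (SE 0.156), 0.92 (SE 0.168) and 0.75 (SE 0.125) and adjusted p of 0.00567, 0.00869 and 0.00593. With the share outside genes in the fit 0 of the 21 were called, while the median stayed at 0.36. In the tricarboxylic acid cycle 3 of 24 rose and 0 fell (median 0.29), led by OGDH, a subunit of the oxoglutarate dehydrogenase complex, at 159.6, 139, 140.3, 137 and 169 CPM against 88.3, 79.9, 69.8, 86.9 and 78.8 CPM (log2 fold change 0.88, SE 0.112, adjusted p = 0.00163). SDHC and DLST had log2 fold changes of 0.65 (SE 0.145) and 0.51 (SE 0.123), with adjusted p of 0.0227 and 0.0318. Of 66 tested genes of the respiratory chain 5 rose and 0 fell. Small shifts ran through that list, since 64 of the 66 had a positive log2 fold change (median 0.43), against 50.3% of all genes tested. The electron carrier gene CYCS was at 12.6, 28.3, 12.04, 22.9 and 10.2 CPM against 4.81, 6.84, 5.62, 6.34 and 9.88 CPM (log2 fold change 1.27, SE 0.282, adjusted p = 0.0217), and NDUFC2, COX6B1 and UQCRB had log2 fold changes of 0.76 (SE 0.176), 0.73 (SE 0.193) and 0.63 (SE 0.158) (adjusted p = 0.0263, 0.0454 and 0.036, the latter pair at 0.146 and 0.067 without the block). The median of the respiratory chain turned to -0.15 with the share outside genes in the fit and 0 of its genes were then called. Only 2 were called without the block or without cow C, and 0 without cow B.

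In the hypoxia response list 6 of 22 tested genes rose and 0 fell (median 0.29), PLOD1 among them. A positive log2 fold change was found in 13 of the 22. The 16 not called included VEGFA (-0.32, adjusted p = 0.162) and CA9 (-0.32, adjusted p = 0.416). With the share outside genes in the fit 3 rose and 0 fell. The median of the list was 0.023 in heifers and 0.019 in lactating cows. EPAS1, which encodes the transcription factor HIF-2 alpha, was at 24.6, 33.1, 13.2, 39.7 and 20.7 CPM ipsilaterally and at 2.69, 14.7, 2.43, 12.1 and 8.43 CPM contralaterally (log2 fold change 1.88, SE 0.277, adjusted p = 0.00316). VEGFC, a lymphatic endothelial growth factor, was at 11.8, 11.7, 2.64, 8.86 and 9.14 CPM against 3.27, 2.10, 1.31, 0.264 and 0.964 CPM (log2 fold change 2.41, SE 0.433, adjusted p = 0.00826). EGLN3, a prolyl hydroxylase of HIF subunits, rose from 14.5 ± 5.24 to 30.3 ± 10.01 CPM (SD, n = 5; log2 fold change 1.09, SE 0.209, adjusted p = 0.0113). In each of these genes all cows rose, although the ranges of the sides overlapped. EPAS1, VEGFC and EGLN3 were not called with the share outside genes in the fit (adjusted p = 0.0644, 0.20 and 0.0864).

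Lipid handling was among the lists with the most increases, with 12 of 39 tested genes of fatty acid binding, activation, elongation and oxidation higher and 4 lower (median 0.24), FABP3 included. Without cow B 6 were higher, and with the share outside genes in the fit 8 were higher and 0 lower. SCP2, a sterol carrier and peroxisomal thiolase, was at 1297, 951, 778, 929 and 751 CPM ipsilaterally and at 302, 309, 396, 454 and 338 CPM contralaterally (log2 fold change 1.37, SE 0.172, adjusted p = 0.00149). DBI, the acyl-CoA-binding protein, was at 51.1, 54.7, 39.5, 55.3 and 43.6 CPM against 17.5, 18.9, 13.7, 19.8 and 19.8 CPM (log2 fold change 1.44, SE 0.133, adjusted p = 0.000379). FADS2, a fatty acid desaturase, went the other way, at 52.4, 25.4, 63.6, 34.9 and 41.1 CPM against 131, 85.2, 189, 102 and 69.9 CPM (log2 fold change -1.39, SE 0.148, adjusted p = 0.000734). For all 3 the ranges of the sides were apart. Of 30 tested genes of cholesterol synthesis and transport 5 rose and 1 fell (median 0.40, and 0.69 with the share outside genes in the fit), but only 1 was called without the block. Rises were found for NPC2 at 1.09 (SE 0.187) and SQLE at 0.71 (SE 0.185) on the log2 scale (adjusted p = 0.00672 and 0.0416, with SQLE at 0.266 without the block). The efflux transporter ABCA1 fell by 1.80-fold in the fit (adjusted p = 0.0254, and 0.0618 without the block).

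Metallothioneins and metal handling had 7 of 17 tested genes higher and 2 lower (median 0.23), LTF among the former, but with the share outside genes in the fit 1 was higher and 0 lower. MT3 was at 45.6, 38.4, 25.5, 84.7 and 9.14 CPM ipsilaterally and at 4.62, 4.73, 4.12, 9.51 and 3.61 CPM contralaterally (log2 fold change 2.78, SE 0.255, adjusted p = 0.000379), lowest on both sides in cow E. MT1E was at 9.68, 8.60, 7.78, 20.8 and 5.38 CPM against 1.54, 6.84, 1.31, 2.91 and 2.41 CPM (log2 fold change 1.92, SE 0.390, adjusted p = 0.0147). Metallothionein genes are near copies of each other, so reads they share may be missing from their counts. STEAP4, a reductase of iron and copper, was at 31.6, 37.6, 49.2, 20.5 and 34.4 CPM against 119.7, 90.5, 177, 152 and 103 CPM (log2 fold change -1.90, SE 0.200, adjusted p = 0.000731), without overlap. Glutathione and antioxidant enzymes rose in 7 of 44 tested genes and fell in 1 (median 0.29). Without cow B 3 rose, and with the share outside genes in the fit 3 rose and the median was 0.0073. PRDX6, a peroxiredoxin, was at 747, 488, 451, 466 and 503 CPM against 297, 285, 249.6, 284 and 305 CPM (log2 fold change 0.88, SE 0.125, adjusted p = 0.00262), and the thioredoxin gene TXN rose with a log2 fold change of 1.11 (SE 0.208) (adjusted p = 0.0101). The glutathione transferases GSTT2 and GSTA2, each with close paralogs, had opposite log2 fold changes of 1.01 (SE 0.248) and -1.05 (SE 0.261) (adjusted p = 0.0323 and 0.0356), and neither was called without the block.

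**Figure D4:**
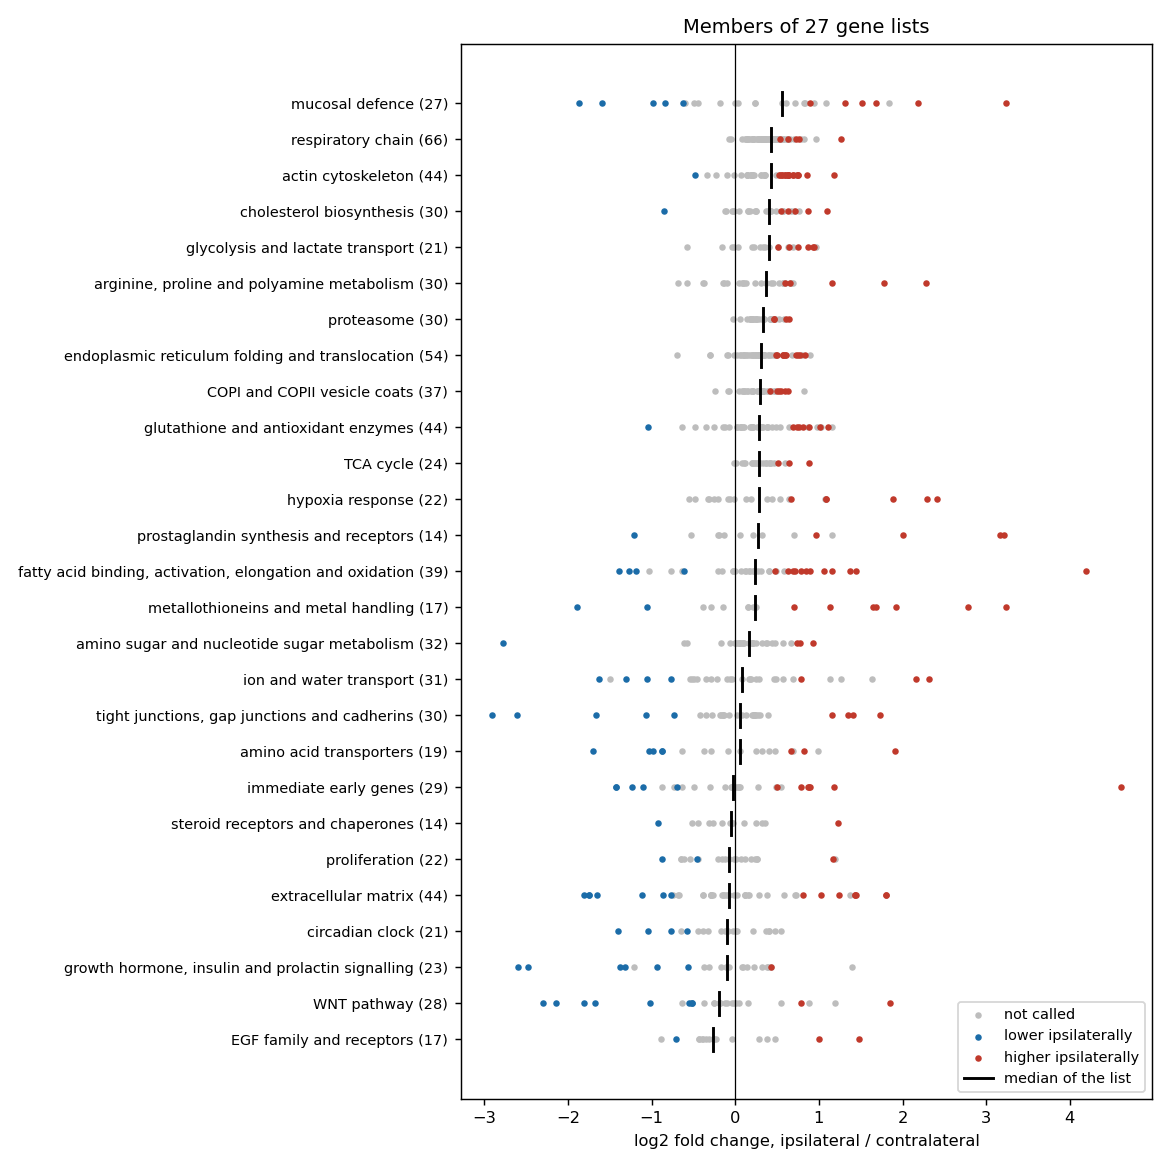
Log2 fold change between the ipsilateral and the contralateral isthmus of each tested member of 27 gene lists, ordered by the median of the list (black bar), with the number of tested members in brackets. Called members are red (higher) or blue (lower), and the medians ran from -0.27 for the EGF family to 0.56 for mucosal defence.

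The secretory machinery showed small increases. Of 54 tested genes of endoplasmic reticulum folding and translocation 10 rose and 0 fell (median 0.31), among them DNAJC10, a disulfide reductase of the endoplasmic reticulum, at 385, 279, 244, 331 and 287 CPM ipsilaterally and 166, 217, 133, 201 and 194 CPM contralaterally (log2 fold change 0.75, SE 0.135, adjusted p = 0.00827). SRP14, SEC61G and MANF had log2 fold changes of 0.83 (SE 0.166), 0.77 (SE 0.176) and 0.73 (SE 0.195) (adjusted p = 0.0136, 0.0242 and 0.047, the latter pair at 0.056 and 0.0577 without the block). Of 37 tested genes of COPI and COPII vesicle coats 6 rose and 0 fell (median 0.29), with ERGIC1 at 256, 299, 275, 271 and 277 CPM against 184, 175, 166, 172 and 194 CPM (log2 fold change 0.63, SE 0.107, adjusted p = 0.00635). TMED4, ARF4 and COPG1 had log2 fold changes of 0.59 (SE 0.109), 0.55 (SE 0.117) and 0.52 (SE 0.134) (adjusted p = 0.00906, 0.0178 and 0.0411). Without cow B 1 gene of each of these lists was called, and without cow C 6 and 3. With the share outside genes in the fit 0 and 1 were called, and the medians were 0.10 and 0.13. The secretory lineage factor SPDEF was at 155, 149, 161, 192 and 172 CPM against 80.1, 94.7, 52.2, 85.6 and 80.5 CPM (log2 fold change 1.10, SE 0.141, adjusted p = 0.00166), and the keratin genes KRT7 and KRT8 had log2 fold changes of 0.92 (SE 0.160) and 0.51 (SE 0.122) (adjusted p = 0.0072 and 0.0291). In amino sugar and nucleotide sugar metabolism 3 of 32 tested genes rose and 1 fell (median 0.16), and with the share outside genes in the fit 0 were called (median -0.05). NPL, a lyase that degrades sialic acid, was at 3.23, 6.88, 1.76, 0.738 and 11.6 CPM against 44.8, 21.04, 39.5, 16.9 and 17.1 CPM (log2 fold change -2.77, SE 0.528, adjusted p = 0.0109). AMDHD2, PMM2 and TSTA3 had log2 fold changes of 0.93 (SE 0.155), 0.77 (SE 0.147) and 0.74 (SE 0.127) (adjusted p = 0.00593, 0.011 and 0.00699).

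The actin cytoskeleton had the largest number of called members of any list, 17 higher and 1 lower of 44 tested (median 0.43). FLNA, which crosslinks actin filaments, was at 207, 297, 237, 313 and 263 CPM ipsilaterally and at 131, 129, 175, 194 and 149.6 CPM contralaterally (log2 fold change 0.75, SE 0.127, adjusted p = 0.00611). ACTN1, TPM4 and ARPC5L rose with log2 fold changes of 0.75 (SE 0.127), 0.85 (SE 0.140) and 1.18 (SE 0.248) (adjusted p = 0.00634, 0.00555 and 0.0173). Without cow C 14 genes of the list were called higher, without the block 15, without cow B 6 and with the share outside genes in the fit 0 (median 0.19).

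Junction and adhesion genes changed in both directions, with 4 of 30 tested genes higher and 5 lower (median 0.05), and 2 higher and 0 lower with the share outside genes in the fit. CLDN10, a claudin of ion-permeable tight junctions, was at 86.4, 48.5, 50.2, 66.8 and 81.7 CPM ipsilaterally and at 317, 147, 288, 154 and 181 CPM contralaterally (log2 fold change -1.67, SE 0.190, adjusted p = 0.000911). CDH13, the cadherin anchored by a lipid, was at 3.59, 1.15, 1.61, 2.77 and 5.65 CPM against 21.6, 17.4, 19.1, 8.72 and 19.3 CPM (log2 fold change -2.61, SE 0.338, adjusted p = 0.00179), and PCDH19, a protocadherin, at 1.61, 0, 3.96, 0.922 and 2.96 CPM against 10.97, 6.31, 27.7, 12.1 and 9.16 CPM (log2 fold change -2.90, SE 0.413, adjusted p = 0.00262). These 3 genes were lower ipsilaterally in every cow. Among connexin genes chosen after their values were seen, GJB1 and GJB5 rose, with log2 fold changes of 1.41 (SE 0.218) and 1.35 (SE 0.177) (adjusted p = 0.00412 and 0.00181), whereas GJA1 fell with -1.06 (SE 0.159) (adjusted p = 0.0035, and 0.186 without the block).

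Extracellular matrix genes split, 8 of 44 tested being higher and 7 lower (median -0.08), with 4 and 3 without the block and 2 and 0 with the share outside genes in the fit. FBN1, the microfibril protein fibrillin 1, was at 69.05, 34.6, 57.1, 37.8 and 103 CPM ipsilaterally and at 332, 105, 395, 139 and 139.7 CPM contralaterally (log2 fold change -1.81, SE 0.275, adjusted p = 0.00368). FBLN5, a fibulin of elastic fibres, fell with -1.75 (SE 0.354) (adjusted p = 0.0143, and 0.0921 without the block). FMOD, the collagen-binding fibromodulin, rose with 1.81 (SE 0.400) (adjusted p = 0.0213, and 0.103 without the block). Outside the list, the matrilin gene MATN1 fell with -2.73 (SE 0.509) (adjusted p = 0.00974, and 0.0699 without the block). MFAP5, another microfibril protein that was not on the list, was at 14.2, 51.2, 22.6, 53.7 and 9.41 CPM against 12.3, 11.04, 0.187, 2.64 and 1.45 CPM (log2 fold change 2.63, SE 0.599, adjusted p = 0.0242, and 0.0641 without the block), with the lowest value in the contralateral library of cow C and hardly a difference in cow A. Its log2 fold change was 2.13 (adjusted p = 0.0141) without cow C and -0.24 (adjusted p = 0.89) with the share outside genes in the fit.

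Ion and water transport had 3 of 31 tested genes higher and 4 lower (median 0.08), and 0 of these were called with the share outside genes in the fit. The subunits of the ATP-sensitive potassium channel, KCNJ11 and ABCC8, were both higher, KCNJ11 at 7.17, 7.26, 12.9, 17.2 and 5.65 CPM ipsilaterally and 1.35, 4.21, 1.31, 2.38 and 1.45 CPM contralaterally (log2 fold change 2.32, SE 0.366, adjusted p = 0.00455) and ABCC8 at 12.4, 24.1, 16.1, 23.2 and 7.26 CPM against 3.08, 10.5, 1.69, 3.43 and 2.17 CPM (log2 fold change 2.17, SE 0.304, adjusted p = 0.00253). KCNMB2, a regulatory subunit of the calcium-activated potassium channel, fell from 47.5 ± 8.94 to 20.4 ± 9.65 CPM (SD, n = 5; log2 fold change -1.30, SE 0.171, adjusted p = 0.00182). In mucosal defence 6 of 27 tested genes rose and 5 fell (median 0.56, 0.35 without cow C, and -0.17 with the share outside genes in the fit). Without the block 3 rose and 2 fell, as they did without cow B, and with the share outside genes in the fit 1 rose and 0 fell. Beside LTF, the complement receptor C5AR2 was at 35.9, 55.4, 26.7, 35.98 and 31.2 CPM against 12.9, 20.5, 1.87, 12.4 and 16.9 CPM (log2 fold change 1.68, SE 0.305, adjusted p = 0.00869) and S100A12 rose with a log2 fold change of 2.18 (SE 0.572) (adjusted p = 0.0438, and 0.0844 without the block). MUC15, a membrane mucin, was lower, at 3.59, 7.26, 7.19, 4.98 and 6.45 CPM against 14.4, 16.8, 32.02, 22.5 and 21.7 CPM (log2 fold change -1.87, SE 0.208, adjusted p = 0.000871).

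Clock genes that passed were lower ipsilaterally, 4 of 21 tested, with 0 higher (median -0.09). Without the block 3 fell and 1 rose, and with the share outside genes in the fit 0 were called. NR1D2, a nuclear receptor that represses clock genes, was at 63.3, 51.8, 68.4, 47.97 and 107 CPM ipsilaterally and at 117, 108, 114, 94.3 and 124 CPM contralaterally (log2 fold change -0.77, SE 0.137, adjusted p = 0.00808). NR1D1, PER3 and DBP had log2 fold changes of -1.40 (SE 0.288), -1.05 (SE 0.186) and -0.58 (SE 0.147) (adjusted p = 0.0155, 0.00804 and 0.0392, with DBP at 0.105 without the block). Both sides were taken from the same cow at slaughter. Immediate early and stress genes included 7 higher and 5 lower of 29 tested (median -0.03), and 2 and 4 with the share outside genes in the fit. GADD45G and its paralog GADD45B, chosen after its value was seen, rose, the latter with a log2 fold change of 1.18 (SE 0.279) (adjusted p = 0.0281). Among those that fell, the transcription factor gene KLF11 was at 19.01, 20.8, 20.7, 12.5 and 40.6 CPM against 87.4, 56.3, 45.5, 21.4 and 113 CPM (log2 fold change -1.42, SE 0.186, adjusted p = 0.00181), and CYR61 and IER3 had log2 fold changes of -1.43 (SE 0.282) and -1.23 (SE 0.269) (adjusted p = 0.0131 and 0.0202). Of 22 proliferation genes 1 rose and 2 fell (median -0.08), namely UHRF1 with 1.17 (SE 0.269), KIF23 with -0.88 (SE 0.193) and MCM7 with -0.46 (SE 0.113) on the log2 scale (adjusted p = 0.0249, 0.0207 and 0.0323). None of the 3 was called without cow B, MCM7 alone was called without the block, and UHRF1, KIF23 and MCM7 were not called without cow C. Of 30 proteasome genes 4 rose and 0 fell, all 4 by at most 1.56-fold, and 29 had a positive log2 fold change (median 0.33). The largest was PSMA7 at 0.64 (SE 0.168) (adjusted p = 0.0449), and 0 of the list were called without cow B, without cow C or with the share outside genes in the fit, where the median was -0.02.

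The most abundant transcripts were not called. OVGP1 was at 10971, 14121, 13470.2, 15117 and 10979 CPM in the ipsilateral isthmus of cows A to E and at 15517, 14030.4, 37.6, 10159 and 9598 CPM in the contralateral isthmus, so that its log2 fold change of 0.81 (SE 0.936) came with an adjusted p of 0.657, and without cow C it was 0.07 (adjusted p = 0.908). The mucin MUC16, also lowest in the contralateral library of cow C, had a log2 fold change of 0.23 (SE 0.333) (adjusted p = 0.734), and -0.19 (adjusted p = 0.683) without that cow. CLU, EEF1A1 and the non-coding RN7SL1 had log2 fold changes of 0.03 (SE 0.132), 0.07 (SE 0.171) and 0.28 (SE 0.261) (adjusted p = 0.921, 0.862 and 0.574).

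Among cell type markers the secretory and mesothelial lists had the highest medians. Of 29 tested genes of ciliated cells 1 rose, CAPS, with a log2 fold change of 0.43 (SE 0.109) (adjusted p = 0.0387), of 11 secretory genes 3 rose, LTF, SPDEF and KRT7 (median 0.72, and 0.30 without cow C), and of 7 epithelial genes 1 rose, KRT8, with 0 lower in these lists. CAPS and KRT8 were not called without cow B or without cow C, and 0 genes of these lists were called with the share outside genes in the fit. Among tested markers of other cells, 0 of 4 smooth muscle, 0 of 8 macrophage, 0 of 7 T and NK cell, 0 of 1 B and plasma cell and 0 of 1 luteal, granulosa and cumulus cell genes passed, and no red blood cell gene reached the filter. Of 3 fibroblast genes 1 rose, THY1, at 2.33, 76.1, 3.96, 51.5 and 0 CPM ipsilaterally and 0.385, 2.63, 0, 0.792 and 0 CPM contralaterally, and this rested on cows B and D (log2 fold change 5.05, SE 0.454, adjusted p = 0.000437). EMCN, the 1 of 6 endothelial genes that rose, was at 2.15, 22.2, 4.40, 9.96 and 2.42 CPM against 0.577, 3.68, 0.187, 0.792 and 0.964 CPM (log2 fold change 2.71, SE 0.427, adjusted p = 0.00455). S100A12, given above, was the 1 called of 2 neutrophil genes. Of 5 mesothelial genes MSLN and UPK3B rose (median 0.96, and 0.43 without cow C, where MSLN was not called, with an adjusted p of 0.0938). MSLN differed more between cows than between sides, at 5.02, 158, 44.9, 118 and 5.38 CPM against 3.66, 147, 11.4, 48.6 and 2.65 CPM (log2 fold change 0.99, SE 0.252, adjusted p = 0.0391), and was not called without the block (adjusted p = 0.732). UPK3B was at 22.8, 38.98, 32.1, 45.8 and 24.2 CPM against 13.5, 19.5, 4.68, 19.3 and 19.03 CPM (log2 fold change 1.18, SE 0.282, adjusted p = 0.0296, and 0.0643 without the block), with the lowest value in the contralateral library of cow C. Cows B and D had the highest ipsilateral values of each of THY1, MSLN, MFAP5 and EMCN, a set chosen after the values were seen. MFAP5 is on no cell type list. Ipsilateral UPK3B and the summed mesothelial markers (685 CPM in cow B and 746 CPM in cow D) were also highest in these cows. Some other markers did not share this order. Ipsilateral COL1A1, COL3A1 and DCN were highest in cow A, PECAM1 in cow E and VWF in cow D. The part of other cell types in the differences above was not tested.

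The calls of the genes named here did not all hold in other fits. Of the 135 called, 31 were not called without the block (adjusted p 0.052 to 0.815), 42 of the 134 tested without cow B (0.0501 to 0.164) and 20 without cow C (0.0513 to 0.155). Without cow A 54 were not called, without cow D 34, and without cow E 11 of the 134 tested. With the share outside genes in the fit 103 of the 135 were not called. The calls that did not hold without cow B and have not been given above were those of ARF4, ARPC5L, COPG1, COX6B1, CYCS, DBP, DLST, GADD45B, IER3, IGFBP3, MANF, MFAP5, NDUFC2, NRG2, PSMA7, S100A12, SDHC, SEC61G, SQLE, SRP14, TMED4, TXN, UPK3B, UQCRB, ABCA1, GSTA2 and GSTT2, and THY1 did not reach the filter there. Without cow C they were those of COPG1, COX6B1, DBP, DLST, GSTA2, IER3, IGFBP3, MANF, NRG2, PLA2G4B, PSMA7, SEC61G and UQCRB.

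The same comparison in the other animals gave 1916 DEGs (14.1% of 13548 tested) in the isthmus of 5 heifers and 323 (2.32% of 13904) in that of 4 lactating cows. Of the 1038 DEGs of non-lactating cows, 1029 were tested in heifers and 1005 of these (97.7%) had the same sign there, as did 75.1% of all genes tested in both groups. In lactating cows it was 994 of 1029 (96.6%), against 72.2% of all. These animals share no library with the non-lactating cows. Called in both non-lactating cows and heifers, in the same direction, were 642 genes, or 62.4% of the former and 33.7% of the latter lists. With lactating cows it was 223 genes, or 21.7% and 69.7%. A total of 196 genes were called in all 3 groups in the same direction, 126 higher and 70 lower ipsilaterally. LTF, FABP3, CAMK2B, SCP2, SLC7A5, DHRS4, PLOD1 and PGR were among them. For PGR the study names heifers and lactating cows and not non-lactating cows, in which the call did not hold in some fits given above. LTF had log2 fold changes of 3.11 in heifers and 2.84 in lactating cows, FABP3 of 3.04 and 4.20, CAMK2B of 2.95 and 3.24, and PGR of -1.06 and -0.76.

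Whether the side effect itself differed between groups was tested as an interaction. Against heifers 0 of 14476 genes passed (733 at an unadjusted p under 0.05), and DESeq2 called 2. Against lactating cows 0 of 14739 passed (723 at an unadjusted p under 0.05), and DESeq2 called 8. FAM13C, the gene with the smallest p in both tests, was at 66.4, 29.2, 76.5, 43.2 and 51.3 CPM ipsilaterally and at 124, 41.02, 151, 90.1 and 78.5 CPM contralaterally in non-lactating cows (log2 fold change -0.82, SE 0.124, adjusted p = 0.00356, and 0.127 without the block). Its side effect was 0.08 in heifers and 0.31 in lactating cows, but neither difference passed (adjusted p = 0.313 and 0.224). AKAP12, which anchors protein kinase A, had a log2 fold change of -1.71 (SE 0.182) in non-lactating cows and -0.35 in heifers (adjusted p of the difference 0.313), and SFRP2 -2.30 and -0.88 (adjusted p of the difference 0.753). TP53I11 rose by 2.25 (SE 0.221) on the log2 scale in non-lactating cows and stood at 0.27 in lactating cows (adjusted p of the difference 0.416), and PLAC8 stood at -1.38 (SE 0.162) (adjusted p = 0.00107, and 0.0679 without the block) and -0.10 (adjusted p of the difference 0.416). Among all DEGs of non-lactating cows, 134 had an unadjusted p of 0.05 or more in both other groups. Since 0 genes passed these edgeR tests of the difference, the 134 were not shown to be particular to non-lactating cows.

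**Figure D5:**
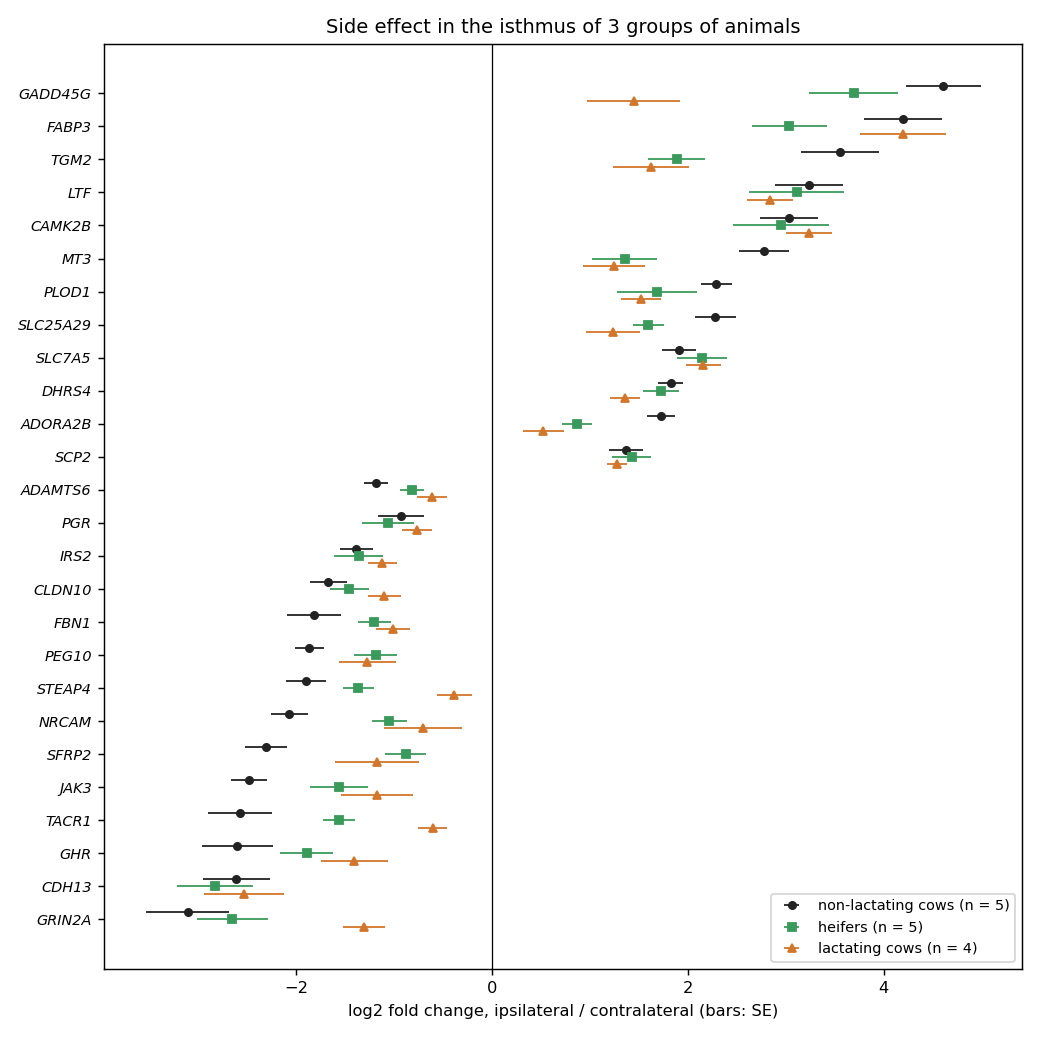
Log2 fold change between the ipsilateral and the contralateral isthmus, with its SE, of 26 genes in non-lactating cows (black circles), heifers (green squares) and lactating cows (orange triangles). The genes were chosen for their values in non-lactating cows, and each has the same sign in all 3 groups.

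The side effect in the isthmus of cows A to E was set against that in the ampulla of cows A, D and E. In the latter cows the ampulla libraries of both sides carried their tag, and the ipsilateral one matched them in expression. Contralateral ampulla libraries were not checked for a match. With each pair of sides as a block, the side effect differed in 14 of 15129 genes (0.0925%, 1270 genes at an unadjusted p under 0.05). Cows B and C gave isthmus pairs only, so the regions do not hold the same cows. The side effect was more positive in the isthmus for PLOD1, DHRS4, RAB25, GADD45G, DGKA, AIM1, EMCN, ADORA2B and LTF, and more negative for PEG10, KERA, STEAP4, ABCA13 and JAK3. PLOD1 had a log2 fold change of 2.29 (SE 0.158) in the isthmus and 0.54 (SE 0.186) in the ampulla, a difference of 1.75 (adjusted p = 0.029). For DHRS4 the values were 1.83 (SE 0.127) and 0.37 (SE 0.192), a difference of 1.46 (adjusted p = 0.029). LTF stood at 3.24 and 0.26, with a difference of 2.98 (adjusted p = 0.0361), and PEG10 at -1.86 and -0.43, with a difference of -1.44 (adjusted p = 0.029). KERA, the corneal proteoglycan keratocan, was lower ipsilaterally in the isthmus (-0.99, adjusted p = 0.00922, and 0.815 without the block) and had a log2 fold change of 2.12 in the ampulla. The count depended on single cows. Without the block it was 0, and it was 0 without cow A, 1 without cow D, 3 without cow E, 4 without cow B and 19 without cow C.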

How the data were processed

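RNA of scraped oviduct epithelium was sequenced as stranded, single-end libraries. The authors aligned reads with TopHat2 (version 2.0.13) and deposited raw counts per gene made with HTSeq (version 0.6.1) in strand-specific mode, in a table of 56 columns. Its 5 summary lines (alignments counted on no gene, not unique and the like) were left out of library sizes and tests. Alignments that were not unique stood in those lines and not on genes, so genes with near-identical copies are uncertain. Reads carried no molecular identifiers.

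Libraries were grouped by the status, region and side in the labels. Genes passing filterByExpr of edgeR 4.0.16 (minimum count 10) were scaled by TMM and tested in R 4.3.3 with a quasi-likelihood F test, with the cow as a block and a Benjamini-Hochberg adjusted p under 0.05. Differences between groups were tested as interactions with the animal as a block. Those between regions had each pair of sides, 1 per cow and region, as a block. Fold changes are those of the fit and levels are TMM-normalized CPM. DESeq2 1.42.0 was an alternative. The fits were tested on simulated data.

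The animal tag pairs the sides. Over all 10616 genes with enough counts, deviations from the side means correlated between the sides of a cow at 0.335, 0.553, 0.049, 0.095 and 0.102 for cows A to E. Over the 200 genes that best separate animals in the other libraries, ranked with that library left out, each library correlated with the other libraries of its own tag at 0.710 to 0.871 and with those of any other animal at 0.490 at most. By the same check 1 ipsilateral ampulla library matched another animal than its tag and 1 carried a tag of another group, so the ampulla of cows B and C was not used. The ipsilateral ampulla libraries of cows A, D and E matched their own tag best, at 0.648, 0.853 and 0.773. The match of the library of cow B to a heifer was 0.665. Contralateral ampulla libraries were not checked in this way. Libraries of a side differed by more than counting noise (chi-square per degree of freedom 5.20 to 25.8 over 20 pairs). Each cow gave 1 library a side. With the cow as a block, a p-value sets the mean difference between sides against its variation from cow to cow.

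The comparison, the gene lists and the tests were chosen with earlier results of these data known. Lists are described by their counts and median beside those of all genes tested. Named genes, other than those numbered LOC, were the 8 called genes that rose most and the 8 that fell most (both at a mean of at least 5 CPM and in 1 direction in all 5 cows), the 5 with the smallest p each way, the 5 with the highest CPM, PGR, the 4 called members of each list with the largest change, or its most abundant member where none was called, and the 3 with the smallest p in each interaction. The genes called against the ampulla were named as well, since the count was small, and other exceptions are stated. A few genes that the rule names are not reported here. Of 1120 genes listed, 1068 were found in the table and 885 were tested. Alternatives were no block, edgeR's relative log expression (RLE) size factors in place of TMM, DESeq2, no filter, robust dispersion and thinned counts. Others were all 28 isthmus libraries in 1 fit, the share of alignments outside genes as a covariate and each animal left out. A fit without the contralateral library of cow C was added after seeing the data.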

Additional observations from a re-analysis of the deposited data

Results flagged for a closer look

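In 21 of 280 sets of 5 libraries of a side, taken over the genes reported, 1 library stood far from the other 4, where chance gives about 1 in 20. The contralateral library of cow C was that library in 9 of them. It was lowest for OVGP1 (37.6 CPM against 9598 to 15517 in the other 4), MUC16 (1324 CPM), SPDEF (52.2 CPM), C5AR2 (1.87 CPM), UPK3B (4.68 CPM), PMM2 (22.3 CPM) and GADD45G (0 CPM), and highest for ERBB4 (58.98 CPM) and KIF23 (26.4 CPM). In other contralateral libraries, cow D was lowest for CDH13 (8.72 CPM) and highest for GJB1 (12.9 CPM) and MT3 (9.51 CPM), cow A highest for JAK3 (178 CPM) and MANF (16.9 CPM), and cow B lowest for SLC7A2 (9.99 CPM). On the ipsilateral side cow D was lowest for PGR (12.5 CPM) and highest for AMDHD2 (37.5 CPM), cow E lowest for GPI (90.3 CPM) and highest for IRS2 (18.0 CPM), cow A highest for PRDX6 (747 CPM) and cow C lowest for VEGFC (2.64 CPM).

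The side effect differed between isthmus and ampulla, by an interaction term with each pair of sides as a block, in 14 genes. On the log2 scale, isthmus minus ampulla, it differed by 1.75 for PLOD1, 1.46 for DHRS4, 2.04 for RAB25, 3.71 for GADD45G, 2.07 for DGKA, 2.16 for AIM1, 2.69 for EMCN, 1.39 for ADORA2B and 2.98 for LTF, and by -1.44 for PEG10, -3.02 for KERA, -1.80 for STEAP4, -1.90 for ABCA13 and -2.13 for JAK3, with adjusted p between 0.0290 and 0.0361 in edgeR's quasi-likelihood test. The ampulla gave 3 pairs, and the contralateral level of GADD45G in the isthmus was near 0.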

How the results depend on the processing

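The count of DEGs between the sides was 1038. It was 1029 with edgeR's RLE size factors, 1067 with robust dispersion, 1159 with DESeq2 and 1252 with DESeq2 without the block. It was 1828 with no filter, 1864 with all 28 isthmus libraries in 1 fit, 524 with counts thinned to the smallest library, 321 with the share of alignments outside genes in the fit and 344 without the contralateral library of cow C and without the block. Leaving out a cow gave 412 to 1209, lowest without cow A and highest without cow E. Without the replicate block, that is without pairing the sides by cow, it was 709, and for isthmus against ampulla 0 in place of 14, while the interactions with heifers and lactating cows had 0 either way. Against heifers the count was 25 with no filter and 2 with DESeq2, and 0 with any animal left out. Against lactating cows it was 255 with no filter and 8 with DESeq2, and 0 to 1 with an animal left out, the 1 without non-lactating cow E. Against the ampulla it was 264 with no filter, 73 with DESeq2, 17 with edgeR's RLE size factors and 27 with all pairs that share a tag. With a cow left out it was 0 to 19, lowest without cow A and highest without cow C. The cause of these shifts was not tested.

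Of 140 genes reported, 135 were called, and 131 of these kept their direction in each of the 15 alternatives in which they were tested. The sign turned, with the share outside genes in the fit, for CLU (-0.10), COX6B1 (-0.019), EEF1A1 (-0.49), MFAP5 (-0.24), MSLN (-0.15), MUC16 (-1.04), OVGP1 (-1.35), PSMA7 (-0.038) and RN7SL1 (-0.64). Without the contralateral library of cow C it turned for CLU (-0.037), EEF1A1 (-0.017) and MUC16 (-0.15). With a cow left out EEF1A1 ranged from -0.0030 to 0.21 and MUC16 from -0.19 to 0.47. Of 1170 list counts over the alternatives, 833 were within 1.5 times the count given.

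With 5 pairs and 1901454 counts in the smallest library, genes of a few CPM rest on few counts, and a gene that was not called is not shown to be equal on both sides. The share of alignments outside genes and the side move together. The depth was lower contralaterally in 4 of 5 cows.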

Other observations

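Some abundant transcripts, chosen after their values were seen, were among the genes that differed. M-SAA3.2, a serum amyloid A of mammary type, was at 3511, 2410.2, 2549, 4321 and 2011 CPM in the ipsilateral isthmus of cows A to E and at 2367, 614, 1130.0, 1874 and 649 CPM in the contralateral isthmus (log2 fold change 1.31, SE 0.190, adjusted p = 0.00297, and 0.0834 without the block). Its family has near-identical copies, so its counts are uncertain. The selenium transport protein gene SEPP1 rose from 831 ± 78.4 to 1339 ± 143 CPM (SD, n = 5; log2 fold change 0.69, SE 0.112, adjusted p = 0.00551). LY6E, a surface protein anchored by a lipid, rose from 807 ± 228 to 1425 ± 342 CPM (SD, n = 5; log2 fold change 0.83, SE 0.181, adjusted p = 0.0205). The membrane linker ezrin, EZR, the chaperone HSPA8 and the exchange factor DOCK9 rose with log2 fold changes of 0.53 (SE 0.117), 0.61 (SE 0.132) and 0.81 (SE 0.179) (adjusted p = 0.0213, 0.019 and 0.0217). NFAT5, a transcription factor of the response to osmotic stress, was at 1091, 717, 925, 606 and 1139 CPM against 1657, 1121, 3212, 1504 and 1273 CPM and was lower in 5 of 5 cows (log2 fold change -0.90, SE 0.213, adjusted p = 0.0282, and 0.0606 without the block). Of these genes EZR, HSPA8, DOCK9, LY6E and NFAT5 were not called without cow B.

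Genes with a LOC number in place of a symbol fell more often than they rose. Of 2204 such genes tested, 25 were higher ipsilaterally (1.13%) and 108 lower (4.90%), against 506 (4.34%) and 399 (3.42%) of the 11665 genes with a symbol. The cause was not tested.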
